A study of Mus musculus with 1086 samples.

Results

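The diet response of the liver was measured in AJ (A/J), an inbred mouse strain, in 8 males fed a high fat diet and 8 males fed a control or chow diet. These 16 animals are the columns named for AJ in a table of 128 founder animals, within a series of 1086 labelled sequencing records. The series also sequenced Diversity Outbred livers, which were not analysed here, and AJ is 1 of the 8 inbred strains from which that stock was bred. The other 7 strains, 129S1, B6, CAST, NOD, NZO, PWK and WSB, contributed 16 males each, 8 per diet. Per the labels, the founder males were supplied by The Jackson Laboratory, changed to their diets at 4 weeks of age and were 26 weeks old at collection, except NZO at 20 weeks. The label texts do not give the founder diets in a single way: one has 17% of kcal as fat in the control feed, and 45% of kcal as fat with sucrose at 34% of weight in the high fat feed. Another gives fat as 6% and 22% of feed weight. Shares of kcal and of weight are different units, both apply to every founder group, and they need not conflict. The labels name no transgene or drug in any founder group, and each animal is 1 library and 1 replicate, so p-values measure the spread between animals. In the model over all 128 animals, that spread was 1 estimate per gene, pooled over all strains and diets, not AJ alone. Every group of strain and diet had 1 animal in each of 8 sequencing lanes.

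The liver adjusts its own lipid synthesis to the lipid that arrives from food. When cholesterol reaches the hepatocyte, sterol-sensing proteins hold the transcription factor SREBP-2 in the endoplasmic reticulum, and the genes of the cholesterol pathway are transcribed less. Dietary fatty acids are ligands of the nuclear receptor PPAR alpha, which turns on genes of fatty acid oxidation, while SREBP-1c and ChREBP drive fatty acid synthesis in response to insulin and sugar. AJ is widely used beside B6 as a strain that gains less weight on a high fat diet.

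The deposited values were scaled per library, and each was multiplied by 1 constant (115) so that it reads as count equivalents, the estimated reads of a gene in a library of average depth. Changes are high fat minus chow in log2(count equivalents + 1), with the standard error (SE) of a limma model over all 128 animals, and a gene is called where its Benjamini-Hochberg adjusted p over 13534 tested genes is under 0.05. AJ libraries held an estimated 6607890 to 9993940 reads, against 5866070 to 14060500 in the other strains. The AJ diets had 8310990 ± 938497 reads on chow and 8454532 ± 1200931 on high fat (SD, n = 8 each; exact permutation test, two-sided, p = 0.791). Genes above 0 numbered 15873 ± 512 on chow and 15744 ± 218 on high fat (SD, n = 8 each; exact permutation test, two-sided, p = 0.609). The 10 hepatocyte markers were present in all AJ livers, with a summed level of 956224 to 1447820 count equivalents. Over depth, genes above 0 and 13 marker sums, the smallest adjusted p of the 15 exact permutation tests between diets was 0.988.

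Some AJ libraries stood apart from the others of their diet. Chow replicate 8 had 16999 genes above 0, against 15423 to 16128 in the other AJ libraries. It also held the highest chow sums of macrophage and Kupffer cell markers (7514 count equivalents, chow median 3774), of T, B and NK cell markers (138, chow median 22.7) and of dividing cell markers (221, chow median 70.1). In bulk liver, fewer cells of a type and less RNA per cell cannot be told apart. In high fat replicate 6 the acute phase genes summed to 1009070 count equivalents (high fat median 387675) and the unfolded protein response genes to 137360 (high fat median 45414). In high fat replicate 2 the interferon response genes summed to 11493 count equivalents (high fat median 2606). Leaving out chow replicate 8 and high fat replicate 6 together was an alternative chosen after seeing the data. It gave 20 calls in place of 18, with 15 of the 18 among them. Leaving out high fat replicate 2 alone gave 27 calls, with 16 of the 18 among them. The part of these libraries in single results was not tested beyond leaving them out.

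In AJ liver 18 of 13534 genes (0.133%) were called between the diets, 9 higher (0.0665%) and 9 lower (0.0665%) on high fat. The lower genes included enzymes of cholesterol synthesis (Sqle, Nsdhl, Tm7sf2) and of fatty acid synthesis (Acaca). Among the higher genes were Vnn1, Fitm1, Gk and Abcg2. With the 16 AJ animals fitted alone 46 genes were called, 12 of the 18 among them. At an unadjusted p under 0.05 there were 938 genes (6.93%), and 14 of the 18 calls exceeded a 2-fold change. The diet groups did not overlap in 24 tested genes (0.177%), of which 6 were called (Acaca, Rdh11, Plscr2, Gk, Fitm1 and Adgrv1) and 18 were not.

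**Figure D1:**
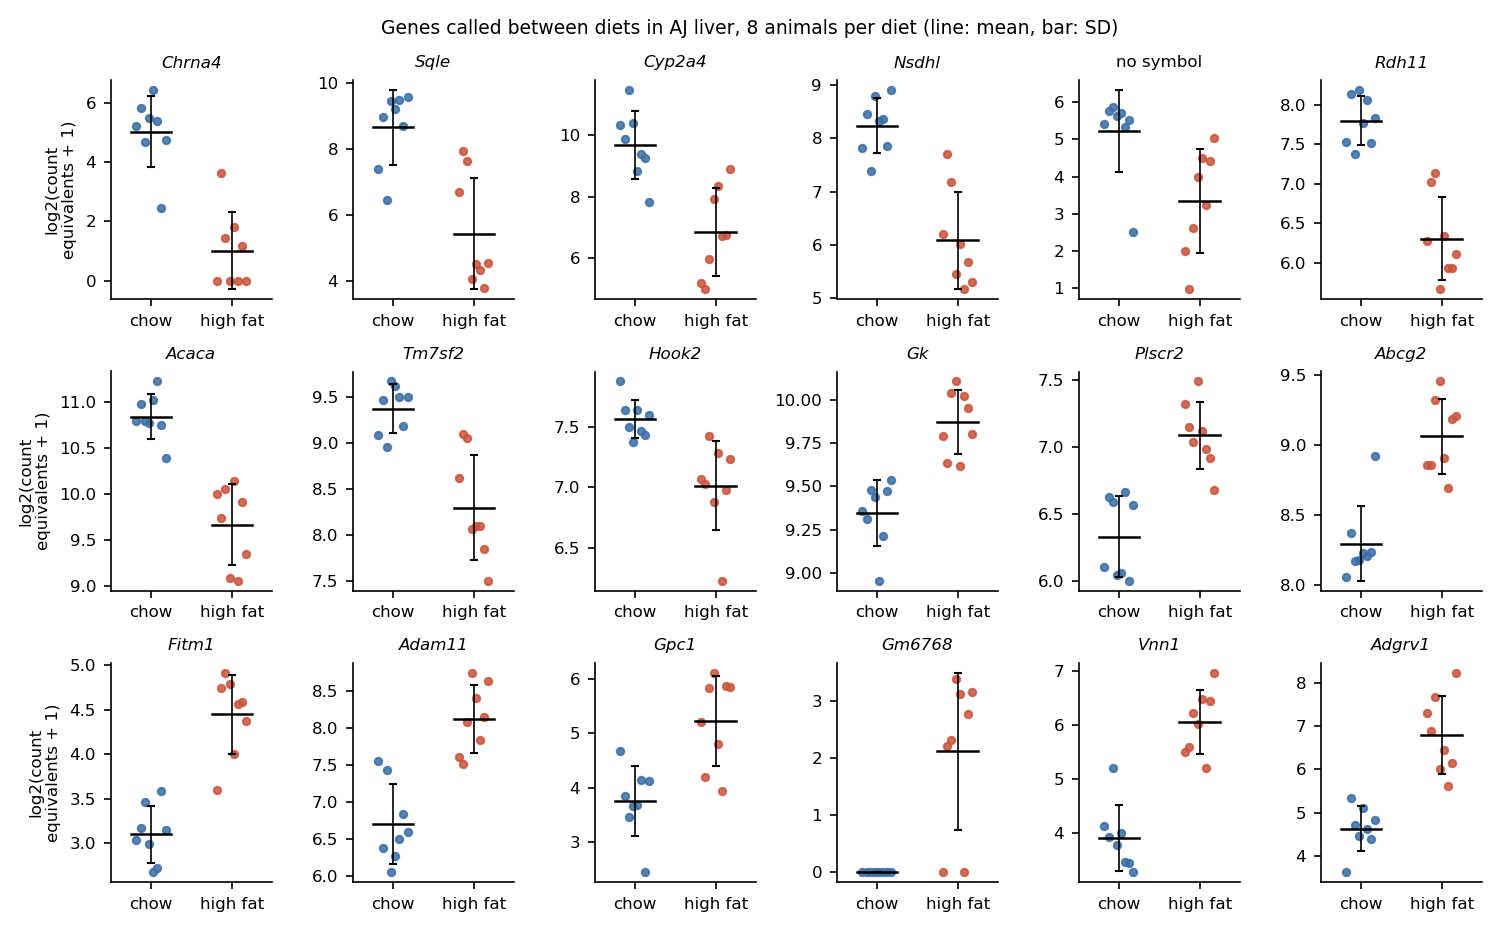
Log2(count equivalents + 1) of the 18 genes called between diets in AJ, with 1 point per animal (8 chow, 8 high fat), lines for means and bars for the SD. Acaca, Rdh11, Plscr2, Gk, Fitm1 and Adgrv1 show no overlap between diets, while Sqle has 3 high fat animals within the chow range.

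Cholesterol synthesis and uptake was the group with most calls. All 23 of its tested genes were lower on high fat by point estimate, and 3 were called. An unadjusted p under 0.05 was found for 19, beside 6.93% of all tested genes. The median change of the group was -0.91, beside 0.01 over all tested genes. Sqle, the squalene epoxidase that carries out a rate-limiting step, had 87.2, 539 and 763 count equivalents (lowest, median, highest) on chow and 12.8, 22.0 and 242 on high fat. It fell by 3.21 on the log2 scale (SE 0.68, limma adjusted p = 0.00979). High fat replicates 1, 2 and 3 kept 103, 242 and 196 count equivalents, within the chow range, and the other 5 high fat animals had 12.8 to 22.2. Nsdhl, which removes the methyl groups at carbon 4 of the sterol ring, had 166, 323 and 480.1 on chow and 34.7, 56.8 and 207 on high fat. Its change was -2.16 ± 0.40 (SE, adjusted p = 0.00255), and 7 of 8 high fat animals lay under the lowest chow animal. Tm7sf2, the delta-14 sterol reductase, had 495, 713 and 811 on chow and 179.9, 272 and 547 on high fat (change -1.08 ± 0.23 SE, adjusted p = 0.00979). For Tm7sf2 the high fat animals inside the chow range were replicates 2 and 3, and its call was lost without high fat replicate 8 (adjusted p = 0.0619).

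Promoters are shown for Nsdhl and Tm7sf2, 2 of the 3 called sterol genes, because the CCAAT motif, which NF-Y binds beside SREBP, recurs in the pathway. The windows run from 250 bases before to 50 bases after the annotated start (RefSeq, GRCm38.p6), read 5′ to 3′ on the gene's strand. Capitals mark CCAAT or its reverse complement ATTGG. Nsdhl lies on the plus strand at chrX:72918271-72918570 and held 4 matches, and Tm7sf2 on the minus strand at chr19:6067801-6068100 held 1.
Nsdhl: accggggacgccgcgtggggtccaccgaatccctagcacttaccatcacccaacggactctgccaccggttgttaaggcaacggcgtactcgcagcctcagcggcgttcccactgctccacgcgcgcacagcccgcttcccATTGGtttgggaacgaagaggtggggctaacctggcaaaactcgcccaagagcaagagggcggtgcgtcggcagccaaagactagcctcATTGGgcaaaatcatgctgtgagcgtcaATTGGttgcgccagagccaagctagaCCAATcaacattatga
Tm7sf2: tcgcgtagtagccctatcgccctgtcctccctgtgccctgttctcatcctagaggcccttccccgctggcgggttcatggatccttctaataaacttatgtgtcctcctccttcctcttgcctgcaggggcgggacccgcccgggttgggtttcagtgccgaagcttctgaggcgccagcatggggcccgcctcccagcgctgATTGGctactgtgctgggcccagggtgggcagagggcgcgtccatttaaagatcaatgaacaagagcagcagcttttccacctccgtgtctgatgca
Of the 24 listed genes 16 had a window in the promoter table, and all 16 held the motif in at least 1 window (16 of 19 windows, 84.2%), beside 37.4% of all 32851 windows. Among the 18 genes called in AJ, 11 had a window and 5 of these held the motif (Abcg2, Adgrv1, Nsdhl, Rdh11 and Tm7sf2). By window this was 5 of 14 (35.7%), no higher than the 37.4% of all windows. A second motif, TCACNCCAC (N for any base), was also searched and was in neither Nsdhl nor Tm7sf2. It was in 1 of 19 windows of the listed genes (5.26%, Hmgcs1). Among the AJ calls it was in 1 of 14 windows (7.14%, Cyp2a4), beside 1.24% of all windows. A match describes these letters in this window and is not evidence of binding in these livers.

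Other steps of the pathway lay in the same direction without passing the test in the main model. Idi1, isopentenyl diphosphate isomerase, had a median of 668 count equivalents on chow and 141 on high fat (change -2.12 ± 0.54 SE, limma adjusted p = 0.0623). Fdps, farnesyl diphosphate synthase, had 870.1 and 197 (change -1.65 ± 0.42 SE, adjusted p = 0.0623), and Cyp51, lanosterol demethylase, had 528 and 135 (change -1.70 ± 0.44 SE, adjusted p = 0.0740). Fdps and Cyp51 overlapped between diets, and so did Dhcr7, the last reductase of the pathway (-1.16 ± 0.29 SE, adjusted p = 0.0623). Msmo1, the sterol C4-methyl oxidase, had 701 and 219 (change -1.10 ± 0.44 SE, adjusted p = 0.536). Fdps and Dhcr7 were named after their values were seen. Idi1 was called with a pseudocount of 5 (adjusted p = 0.0275) and with limma-voom (0.0430), and Fdps with AJ animals only (0.0494). The count of called members depended on single animals and on the model. With AJ animals only and sequencing lane as a block 0 of 23 were called, and Sqle, Nsdhl and Tm7sf2 had adjusted p of 0.196, 0.124 and 0.196. The Sqle call was also lost with AJ animals only (0.0544) and with limma-voom (0.0659). Over single animals, 7 of 23 were called without high fat replicate 2, 5 without chow replicate 3 and 2 without high fat replicate 8. With chow replicate 8 and high fat replicate 6 both left out, 2 were called, and the Sqle change was -2.92 with an adjusted p of 0.0593.

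**Figure D2:**
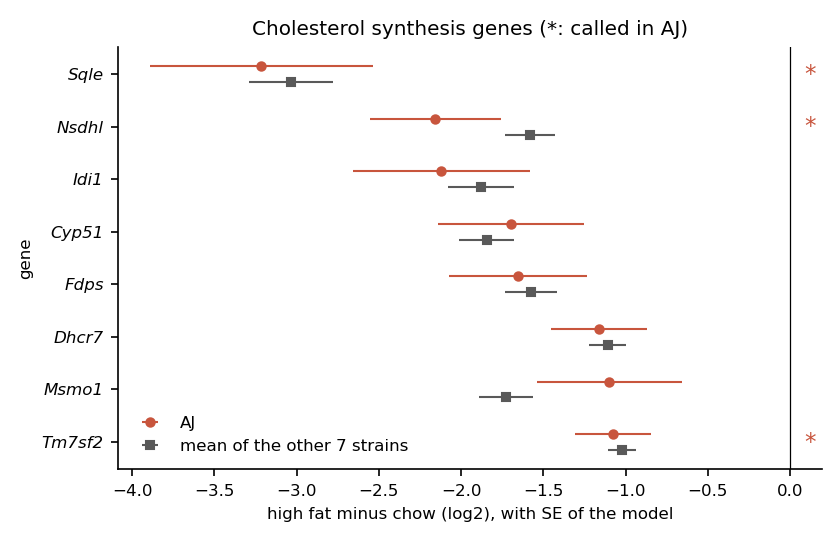
Diet change (high fat minus chow, log2) of 8 genes of cholesterol synthesis in AJ (circles) and as the mean of the other 7 strains (squares), with the SE of the model as bars and asterisks for the 3 genes called in AJ. All 8 AJ values lie under 0, and the AJ bars are longer, each AJ value resting on 16 animals.

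The same genes were lower in the other strains, which share no animals with AJ but share its pooled estimate of the spread per gene. All 23 were called lower in the mean of the other 7 strains, where 3071 of 13534 genes (22.7%) were called, 1730 higher (12.8%) and 1341 lower (9.91%). Their median change there was -0.91, as in AJ, and 10 of the 23 had the larger change in AJ. For AJ minus the mean of the other 7, 0 of the 23 genes were called by limma, and 0 had an unadjusted p under 0.05. For Sqle the difference was -0.18 with a 95% interval from -1.61 to 1.25, so differences within that interval, in either direction, remain possible. Rdh11, a reductase of retinaldehyde and other short aldehydes that was not on the list, was also lower. It had 164, 222 and 290.2 count equivalents on chow and 49.5, 72.3 and 139 on high fat in AJ (change -1.50 ± 0.29 SE, adjusted p = 0.00255), with no overlap between the diets. Its change in the mean of the other 7 was -1.02.

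In fatty acid and triglyceride synthesis, 1 of 21 tested genes was called in AJ, and 15 of 21 were lower on high fat by point estimate. Acaca, the acetyl-CoA carboxylase that makes malonyl-CoA, had 1336, 1766 and 2383 count equivalents on chow and 529, 904 and 1127 on high fat. It fell by 1.17 on the log2 scale (SE 0.25, limma adjusted p = 0.00979), and every high fat animal lay under every chow animal. Fasn, which builds palmitate from malonyl-CoA, also separated the diets, with 2510.2, 3297 and 3755 on chow and 820.2, 1454 and 2219 on high fat. Its change of -1.25 ± 0.31 (SE) had an adjusted p of 0.0592 and was not called. Fasn was called with a pseudocount of 5 (adjusted p = 0.0475), quantile normalization (0.0285), AJ animals only (0.00898) and without high fat replicate 2 (0.0305). Acly, which supplies cytosolic acetyl-CoA, had 1178, 1459.9 and 1631 on chow and 451, 824 and 1019 on high fat (change -0.85 ± 0.29 SE, adjusted p = 0.354). Fasn and Acly were described after their values were seen.

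Scd1 and Pnpla3 were not called. Scd1, the desaturase that makes oleate, had 6799.6, 34203 and 60943 count equivalents on chow and 16436, 35128 and 54909.9 on high fat, with full overlap (change 0.13 ± 0.46 SE, adjusted p = 0.988). Without chow replicate 7, the lowest chow animal, its change was -0.18. Pnpla3, a lipase of the lipid droplet surface, had 5.52, 21.9 and 46.2 on chow and 2.39, 10.2 and 14.9 on high fat (change -1.27 ± 0.58 SE, adjusted p = 0.652). The median change of the list was -0.25 in AJ and 0.10 in the mean of the other 7, where 7 members were called higher and 6 lower. Of all tested genes 12.8% were called higher there and 9.91% lower. For AJ minus the mean of the other 7, limma called 0 of the 21 members. An unadjusted p under 0.05 was found for 6, beside 5.09% of all tested genes. Acaca was 0.88 lower in AJ (SE 0.27), with an unadjusted p of 0.00122 and an adjusted p of 0.677, and in no other single strain was it called.

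Genes of fatty acid oxidation and other PPAR alpha targets lay mostly above 0. Of 26 tested, 1 was called, 25 were higher on high fat by point estimate, and 13 had an unadjusted p under 0.05, all of them higher. Among all tested genes 6.93% had an unadjusted p under 0.05. Vnn1, a pantetheinase and target of PPAR alpha, had 8.66, 13.498 and 36.1 count equivalents on chow and 35.9, 68.6 and 124 on high fat. Its change was 2.14 ± 0.47 (SE, limma adjusted p = 0.0123), and the groups touched only through chow replicate 3. This single call of the list was lost with limma-voom (adjusted p = 0.121). Acaa1b, a peroxisomal thiolase, had 1915, 2658 and 3849.6 on chow and 4231, 5189 and 9121 on high fat without overlap, and was not called (change 1.06 ± 0.35 SE, adjusted p = 0.293). Decr1, the mitochondrial dienoyl-CoA reductase, likewise separated the diets (change 0.43 ± 0.13 SE, adjusted p = 0.199). Acaa1b and Decr1 were described after their values were seen. Cyp4a14, a fatty acid omega-hydroxylase, varied widely, with 51.9, 309 and 3612 on chow and 463, 1397 and 4391 on high fat (change 1.97 ± 0.95 SE, adjusted p = 0.6905). Fgf21, a fasting hormone of the liver, had medians of 9.14 and 12.96 (change 0.57 ± 0.63 SE, adjusted p = 0.937). The list's median change was 0.36 in AJ and 0.32 in the mean of the other 7 strains, where 19 members were called higher and 1 lower. Of all tested genes 12.8% were called higher there and 9.91% lower.

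Gk, glycerol kinase, which phosphorylates glycerol for glycerolipids and gluconeogenesis, was not on a list. It had 495, 675 and 742 count equivalents on chow and 785, 941 and 1102 on high fat, with no overlap. Its change of 0.52 ± 0.13 (SE) had an adjusted p of 0.0482, and the call held in 6 of the 16 fits that each left out 1 AJ animal (adjusted p up to 0.163, without high fat replicate 4). The other AJ animals that ended the Gk call were chow replicates 1, 2, 5 and 6 and high fat replicates 1, 3, 6, 7 and 8.

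Of the lipid droplet and fat storage genes 1 of 17 was called. Fitm1, a membrane protein that partitions triglyceride into droplets, had 5.37, 7.53 and 11.05 count equivalents on chow and 11.09, 22.9 and 29.2 on high fat (change 1.35 ± 0.30 SE, limma adjusted p = 0.0131). The ranges nearly met without overlapping, and the call was lost without high fat replicate 3 (adjusted p = 0.0503), with a pseudocount of 0.5 (0.0726) and with limma-voom (0.282). Cd36, a fatty acid transporter, had 72.9, 270.4 and 616 on chow and 216, 485 and 789 on high fat (change 0.80 ± 0.29 SE, adjusted p = 0.409). Pparg, the lipogenic nuclear receptor, had medians of 18.04 and 29.2 (change 0.66 ± 0.34 SE, adjusted p = 0.737). Cidec, which promotes droplet growth, had 7.18, 15.7 and 30.2 on chow and 9.43, 20.6 and 107 on high fat, the highest value being replicate 6 (change 0.78 ± 0.62 SE, adjusted p = 0.887). By point estimate 12 of 17 members were higher, with a median of 0.17 in AJ and 0.35 in the mean of the other 7, where 11 were called higher and 0 lower at the same threshold. Of all tested genes 12.8% were called higher there and 9.91% lower.

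Abcg2, Plscr2, Adam11 and Adgrv1, which were on no pathway list, were also called higher. Abcg2, an efflux transporter of urate and xenobiotics, had 266, 297 and 483 count equivalents on chow and 413, 531 and 700.3 on high fat (change 0.76 ± 0.15 SE, limma adjusted p = 0.00255). Chow replicate 8 was the only chow animal inside the high fat range. Plscr2, a phospholipid scramblase, had 62.98, 80.7 and 100.4 on chow and 101.3, 134 and 179 on high fat (change 0.76 ± 0.14 SE, adjusted p = 0.00255). Its groups did not overlap. Adam11, a member of the ADAM family without protease activity, had 64.997, 92.2 and 188 on chow and 182, 278 and 429.9 on high fat (change 1.43 ± 0.30 SE, adjusted p = 0.00979), and chow replicate 1 overlapped the high fat range. Adgrv1, a very large adhesion receptor, had 11.3, 24.3 and 39.1 on chow and 47.9, 102 and 298 on high fat (change 2.16 ± 0.48 SE, adjusted p = 0.0143), with no overlap. The Adgrv1 call was lost without chow replicate 1 or high fat replicates 3 or 8 (adjusted p 0.0571 to 0.0718), and with limma-voom (0.266).

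Calls at low levels were named after their values were seen. Gpc1, the heparan sulfate proteoglycan glypican 1, had 4.42, 12.6 and 24.6 count equivalents on chow and 14.4, 46.4 and 68.3 on high fat (change 1.47 ± 0.29 SE, limma adjusted p = 0.00295). The Gpc1 call was lost with limma-voom (adjusted p = 0.315) and with AJ animals only (0.110). Gm6768, a predicted gene, was listed at 0 in all 8 chow animals and at 0 to 9.46 on high fat, so no fold is given, and its call was lost with AJ animals only (adjusted p = 0.0571). Chrna4, a nicotinic acetylcholine receptor subunit, had 4.42, 38.03 and 84.8 on chow and 0, 0.64 and 11.5 on high fat (change -4.01 ± 0.79 SE, adjusted p = 0.00375). Only chow replicate 7 lay inside the high fat range for Chrna4, and its call was lost with limma-voom (adjusted p = 0.130). ENSMUSG00000073738, for which the name table held no symbol, had 4.72, 47.02 and 57.03 on chow and 0.96, 11.6 and 32.1 on high fat (change -1.87 ± 0.41 SE, adjusted p = 0.0126). Its lowest chow value was replicate 8, and its call was lost without high fat replicates 1, 2 or 3, with a pseudocount of 0.5 and with AJ animals only (adjusted p 0.0503 to 0.292). Hook2, which links cargo to microtubules, is expressed more highly, with 165, 186 and 233 on chow and 74.2, 131 and 171 on high fat (change -0.55 ± 0.12 SE, adjusted p = 0.0224). That call was lost without chow replicates 1, 2 or 5 or high fat replicates 4 or 6 (adjusted p up to 0.142), and with AJ animals only (0.1196).

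Cyp2a4, a steroid hydroxylase of the liver that is expressed more in females, was lower on high fat in AJ. It had 225, 801 and 2839 count equivalents on chow and 30.5, 106 and 479.8 on high fat, and 5 of 8 high fat animals lay under the lowest chow animal, replicate 8. The change was -2.82 ± 0.66 (SE, limma adjusted p = 0.0289). It was the single gene of 13534 (0.00739%) called for AJ minus the mean of the other 7 strains, where the other strains averaged 0.75 and the difference was -3.58 ± 0.70 (SE, adjusted p = 0.0187). That mean includes NZO, collected at 20 weeks, with a change of 4.85. The remaining strains ran from -0.77 (CAST) to 1.07 (B6), and the difference without NZO was not tested. The AJ call was lost in 8 of 16 fits that left out 1 AJ animal, chow replicates 1 to 4 and high fat replicates 1, 2, 3 and 6 (adjusted p 0.0539 to 0.0867), with AJ animals only (0.0567) and with a pseudocount of 0.5 (0.0610). The call of the difference was lost in 6 of them, without chow replicates 1, 3 or 4 or high fat replicates 1, 2 or 3 (adjusted p 0.0651 to 0.149).

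Cyp2a4 also differed between strains in level. On chow its median was 801 in AJ, 1635 in PWK, 310.2 in CAST and 46.9 in 129S1, and 1.64 to 3.42 in B6, NOD, NZO and WSB. NZO rose from a median of 3.42 to 277 count equivalents (change 4.85 ± 0.66 SE, adjusted p = 1.45e-08), so that AJ minus NZO was -7.67. Of the other strains, NZO alone had a Cyp2a4 call, and the difference to each remaining strain was not called. On high fat the median was 92.3 in CAST (change -0.77), 1211 in PWK (-0.20) and 54.2 in 129S1 (-0.41). In B6, NOD and WSB the medians were 7.49 or less on both diets, which leaves little room for a fall. Cyp2a4 has a near-identical copy, Cyp2a5, a coumarin hydroxylase, and estimated reads may be split between them. In AJ, Cyp2a5 had 2529, 4019.7 and 6757 on chow and 2708, 4361 and 11360.0 on high fat (change 0.24 ± 0.55 SE, adjusted p = 0.9755), which overlap. Cyp2a4 values are uncertain to the extent that reads were shared.

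The promoter windows of both copies are shown because they are so alike. Both lie on the plus strand of chromosome 7 (RefSeq, GRCm38.p6), Cyp2a4 at chr7:26306942-26307241 and Cyp2a5 at chr7:26835089-26835388, and capitals mark bases that differ in a global alignment or have no partner in it.
Cyp2a4: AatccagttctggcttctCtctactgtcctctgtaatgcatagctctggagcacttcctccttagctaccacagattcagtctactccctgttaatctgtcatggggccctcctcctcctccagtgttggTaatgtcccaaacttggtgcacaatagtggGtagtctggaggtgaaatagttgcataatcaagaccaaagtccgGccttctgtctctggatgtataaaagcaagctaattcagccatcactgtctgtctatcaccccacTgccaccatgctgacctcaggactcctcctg
Cyp2a5: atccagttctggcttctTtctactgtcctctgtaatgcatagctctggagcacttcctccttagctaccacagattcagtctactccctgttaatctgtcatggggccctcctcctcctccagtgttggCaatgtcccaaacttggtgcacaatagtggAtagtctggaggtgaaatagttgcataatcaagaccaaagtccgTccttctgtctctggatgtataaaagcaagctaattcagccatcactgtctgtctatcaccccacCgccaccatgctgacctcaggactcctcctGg
The windows were identical at 294 of 301 aligned positions (97.7%), with 5 substitutions and 2 gaps. Neither held CCAAT.

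**Figure D3:**
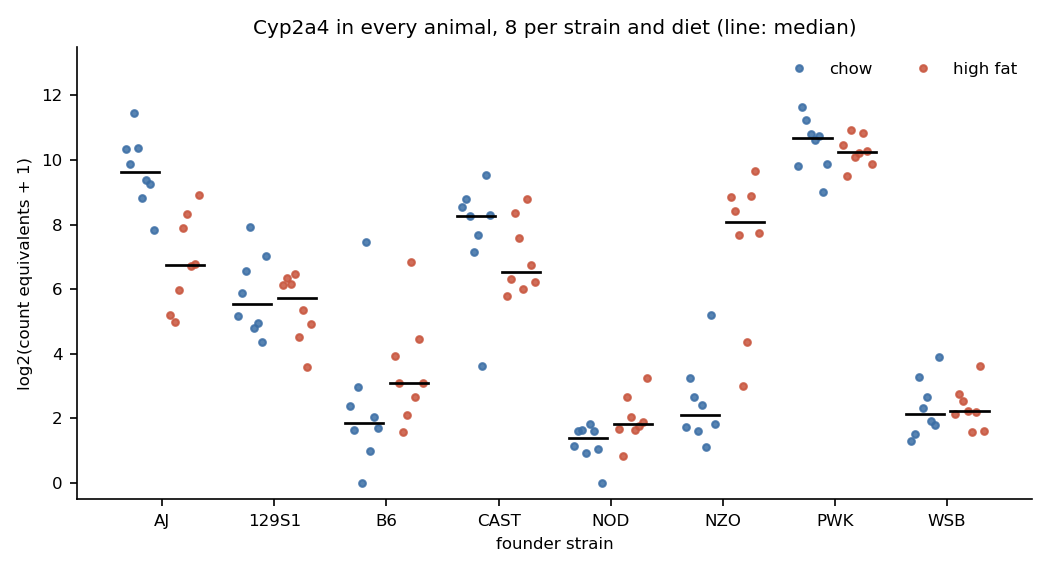
Cyp2a4 in every founder animal as log2(count equivalents + 1), with 1 point per animal, 8 per strain and diet, and lines for medians. AJ chow animals lie among the highest of the plot with PWK, AJ high fat animals lie lower, and NZO moves from a low to a high level.

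Other female-biased genes of the liver did not pass the test in AJ. Of 16 tested, Cyp2a4 was the 1 called, 11 were lower by point estimate, and the median was -0.39, beside 0.31 in the mean of the other 7 strains. Cyp2b9, a female-biased P450 described after its values were seen, had 79.4, 622 and 3880 count equivalents on chow and 288, 1049 and 2329 on high fat (change 0.58 ± 0.73 SE, limma adjusted p = 0.949). Among 16 male-biased genes 0 were called and 3 had an unadjusted p under 0.05, beside 6.93% of all tested genes. The smallest p was that of Ugt2b38, a glucuronosyltransferase, with medians of 8.41 and 32.8 (change 1.45 ± 0.49 SE, adjusted p = 0.330). Cyp4a12a, an arachidonic acid hydroxylase, had medians of 1280 and 2236 (change 0.55 ± 0.26 SE, adjusted p = 0.656).

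The lists on lipid and bile acid transport held no call in AJ. Apoa4, an apolipoprotein that rises in fatty liver, had 1704, 3226 and 3827 count equivalents on chow and 4537, 5857 and 6588 on high fat, with no overlap between the diets. Its change of 0.99 ± 0.31 (SE) had a limma adjusted p of 0.238 over all 128 animals, and it was called where the 16 AJ animals were fitted alone (adjusted p = 0.0145). Apob, the scaffold of very low density lipoprotein, had medians of 67203 and 84065 (change 0.25 ± 0.12 SE, adjusted p = 0.666). Of 18 lipoprotein genes 15 were higher by point estimate, with a median of 0.08. An unadjusted p under 0.05 was found for 2, beside 6.93% of all tested genes. Abcb11, the bile salt export pump, had medians of 2631 and 2192 (change -0.45 ± 0.14 SE, adjusted p = 0.235). Cyp7b1, the oxysterol hydroxylase, had medians of 1797 and 2440 (change 0.63 ± 0.31 SE, adjusted p = 0.6905). Cyp7a1, the rate-limiting enzyme of bile acid synthesis, had medians of 1680 and 1783 (change -0.32 ± 0.87 SE, adjusted p = 0.983), and 1 high fat animal, replicate 6, had 10.8. Without replicate 6 the Cyp7a1 change was 0.59.

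In carbohydrate metabolism and hormone signalling, limma called 0 of 14 genes of glucose and fructose metabolism and 0 of 12 of insulin and growth hormone signalling, and 2 of each list had an unadjusted p under 0.05. Among all tested genes 6.93% did. Tkfc, the triokinase of fructose breakdown, had 2949, 3782 and 4459 count equivalents on chow and 1767, 2278 and 3146 on high fat (change -0.63 ± 0.20 SE, adjusted p = 0.278), with 7 of 8 high fat animals under the lowest chow animal. Tkfc was called with AJ animals only (adjusted p = 0.0405). In the mean of the other 7 strains its change was 0.11, and the difference had an adjusted p of 0.593. Slc37a4, the glucose 6-phosphate transporter, had medians of 1986 and 1558 (change -0.32 ± 0.13 SE, adjusted p = 0.513). Lepr, the leptin receptor, had medians of 100.6 and 218 (change 1.08 ± 0.54 SE, adjusted p = 0.719), and Ghr, the growth hormone receptor, 3983 and 4608 (change 0.26 ± 0.13 SE, adjusted p = 0.717). Enho, which encodes adropin, had medians of 155 and 129.7 (change -0.27 ± 0.46 SE, adjusted p = 0.967).

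Limma called 0 of 16 genes of amino acid metabolism and the urea cycle (3 at an unadjusted p under 0.05), 0 of 21 of xenobiotic metabolism (3) and 0 of 12 of the oxidative stress response (0). Beside these, 6.93% of all tested genes had an unadjusted p under 0.05. Gls2, liver glutaminase, had medians of 1449 and 1075 (change -0.45 ± 0.18 SE, limma adjusted p = 0.496), and Ass1, of the urea cycle, 25110 and 18669 (change -0.38 ± 0.18 SE, adjusted p = 0.673). Ephx1, microsomal epoxide hydrolase, had 377, 527 and 1543 count equivalents on chow and 808, 1179 and 2073 on high fat. Its change of 1.02 ± 0.29 (SE) had an adjusted p of 0.138 and was called once chow replicate 8 was left out (adjusted p = 0.0346). Gstm3, a glutathione transferase, had 118, 233 and 387 on chow and 41.4, 75.4 and 124 on high fat (change -1.50 ± 0.43 SE, adjusted p = 0.165), with 1 high fat animal inside the chow range. Gstm3 was called with a pseudocount of 5 (adjusted p = 0.0375), limma-voom (0.0419) and AJ animals only (0.0145). Sod2 and Gpx1, antioxidant enzymes, had changes of 0.38 ± 0.22 and 0.20 ± 0.12 (SE), each with an adjusted p of 0.796.

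Respiratory chain, clock, unfolded protein, acute phase and interferon lists held no call either, and 4 of 16, 3 of 17, 1 of 16, 0 of 16 and 0 of 15 members had an unadjusted p under 0.05. The share over all tested genes was 6.93%. The 13 lists of cell type markers also held no call. All 16 genes of the respiratory chain were higher by point estimate, by 0.04 to 0.19. Uqcrc2, of complex III, had medians of 1695 and 1905 (change 0.18 ± 0.08 SE, limma adjusted p = 0.618), and Cycs, cytochrome c, 822 and 913 (change 0.19 ± 0.09 SE, adjusted p = 0.649). Arntl, the clock activator BMAL1, had medians of 8.16 and 28.7 (change 1.54 ± 0.56 SE, adjusted p = 0.435), and Nfil3, a clock repressor, 207 and 363 (change 0.92 ± 0.42 SE, adjusted p = 0.657). Chac1, an enzyme of the unfolded protein response, had medians of 89.1 and 112.1 (change 0.83 ± 0.37 SE, adjusted p = 0.645), its highest value being high fat replicate 6. Atf4, a stress transcription factor, had a change of 0.23 ± 0.17 (SE, adjusted p = 0.875). For the acute phase proteins Crp and Mt2 the changes were 0.49 ± 0.31 and 0.74 ± 0.59 (SE), with adjusted p of 0.833 and 0.888. Gbp3, a guanylate-binding protein of the interferon response, had medians of 82.2 and 127 (change 0.70 ± 0.38 SE, adjusted p = 0.763).

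The AJ calls were set beside each other strain. Calls in all strains used the same pooled spread per gene, so their overlap is not independent. In the mean of the other 7 strains, 16 of the 18 AJ calls had the same direction and 15 were called in it (83.3% of the AJ calls, 0.488% of the 3071 calls there). The 3 without a shared call were Cyp2a4, Hook2 and Gm6768. Strain by strain, the AJ calls called in the same direction numbered 12 in NZO (66.7%), 11 in B6 (61.1%), 9 in 129S1 (50%), 8 in NOD (44.4%), 6 in WSB (33.3%) and 5 each in CAST and PWK (27.8%). These are 0.507% of the NZO calls, 2.58% of B6, 4.62% of 129S1, 4.35% of NOD, 0.836% of WSB, 3.16% of CAST and 1.37% of PWK. Adam11 and Abcg2 were called higher in all 8 strains. Sqle, Nsdhl and Tm7sf2 were each called lower in 6 of the other 7. Acaca, Hook2, Gm6768, Chrna4 and Cyp2a4 were called in no other strain in the AJ direction. Acaca and Chrna4 were still lower in all 7 by point estimate, and called lower in their mean (-0.29 and -1.58). Hook2 had the AJ direction in 3 of 7, Cyp2a4 in 4 and Gm6768 in 5. For Hook2, the mean change of the other 7 was 0.00, and AJ minus NZO (-0.76) and AJ minus WSB (-0.81) were called. Plscr2 was called higher in B6 and NZO too, while AJ minus CAST (0.92) and AJ minus PWK (0.93) were called.

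**Figure D4:**
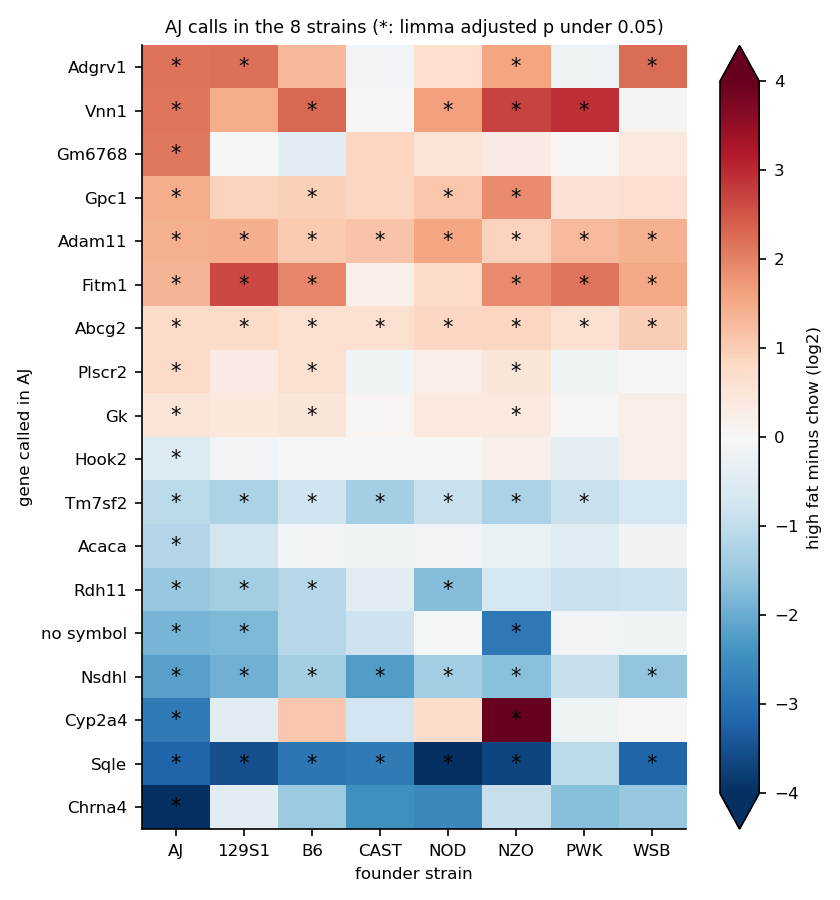
Diet change (high fat minus chow, log2) of the 18 genes called in AJ, in rows, across the 8 founder strains, in columns, with asterisks where the limma adjusted p was under 0.05 and colours capped at 4. Adam11 and Abcg2 carry an asterisk in all 8 columns, and Cyp2a4 has opposite colours in AJ and NZO.

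Of the genes called in the mean of the other 7 strains, most had the same direction in AJ, with a smaller median size. Of 1730 genes called higher there, 1346 (77.8%) were higher in AJ by point estimate, and of 1341 called lower, 961 (71.7%) were lower. The median change was 0.21 there and 0.11 in AJ for the first set, and -0.19 there and -0.08 in AJ for the second. The values in the other strains chose these genes, so the sizes there are a description. Of 33 genes over 2-fold higher in the mean of the other 7, 29 were higher in AJ, 17 at an unadjusted p under 0.05, with a median of 1.23 there and 0.86 in AJ. Of 29 genes over 2-fold lower, 27 were lower in AJ, 19 at an unadjusted p under 0.05, with medians of -1.24 and -1.08. When each strain was set in the same way against the calls in the mean of its own 7 others, the share in the same direction was 75.1% for AJ, between 64.3% (PWK) and 89.7% (B6) for the rest. These sets share animals with each other and are given as a description. For NZO on its own, of 1365 called higher there 889 (65.1%) were higher in AJ, and of 1002 called lower 420 (41.9%) were lower in AJ, where their median was 0.02. Over all 13534 genes the AJ changes had a Pearson correlation of 0.39 with the mean of the other 7, and of 0.07 (NZO) to 0.30 (PWK and B6) with single strains (Spearman -0.02 for NZO), a description across genes that share library and depth.

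**Figure D5:**
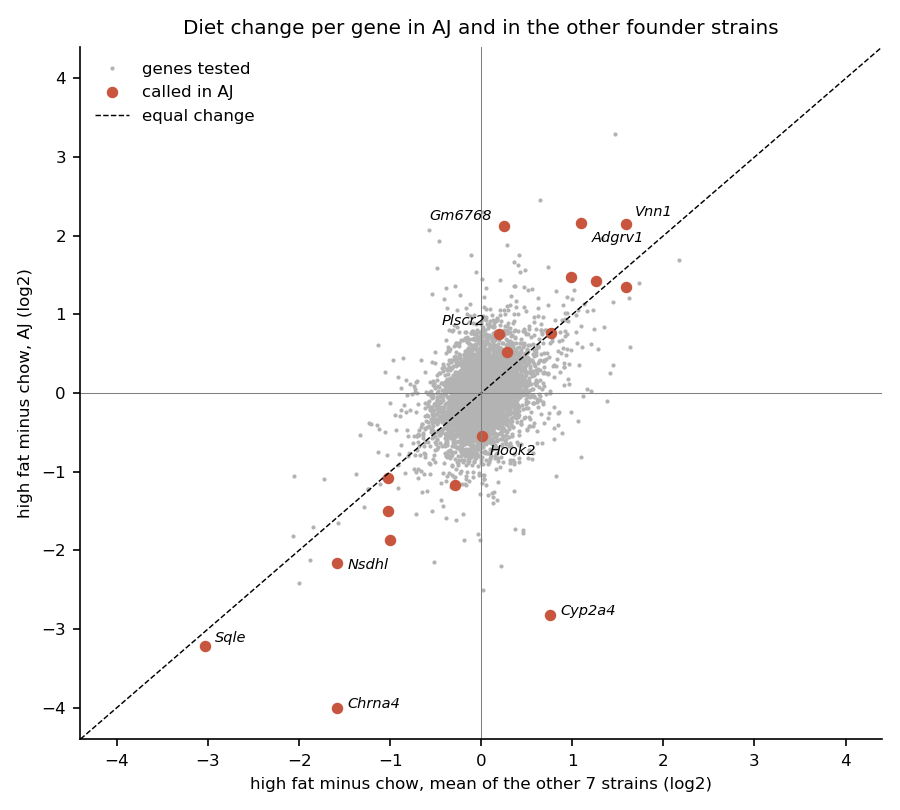
Diet change of each of 13534 tested genes in AJ (vertical axis, log2) against the mean of the other 7 strains (horizontal axis, log2), with the 18 AJ calls in red and a dashed line of equal change. Sqle and Nsdhl lie near the line, and Cyp2a4 lies far from it in the lower right.

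Named by the same rule, the largest changes in the mean of the other 7 strains included genes below the AJ threshold. Cyp3a11, a drug-metabolizing P450, had 1246, 2351 and 10019 count equivalents on chow and 2118, 6899 and 15229.7 on high fat in AJ (change 1.15 ± 0.51 SE, limma adjusted p = 0.645), beside 1.45 in the other strains. Aldh3a2, fatty aldehyde dehydrogenase, had medians of 1132 and 1707 in AJ (change 0.56 ± 0.29 SE, adjusted p = 0.737), beside 1.29. Chrna2, a nicotinic receptor subunit, had medians of 25.3 and 50.6 in AJ (change 0.83 ± 0.49 SE, adjusted p = 0.796), beside 1.35. None of the 3 differed from the mean of the other 7 past the threshold, but Aldh3a2 did for AJ minus NZO (-2.25).

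AJ had the fewest calls of the 8 strains in the joint model. The other strains had 158 in CAST (1.17%), 184 in NOD (1.36%), 195 in 129S1 (1.44%), 366 in PWK (2.7%), 427 in B6 (3.16%), 718 in WSB (5.31%) and 2367 in NZO (17.5%). The median size of change over all genes was 0.12 in AJ and 0.13 to 0.22 in the others, while the median SD between animals of a group was 0.33 in AJ and 0.29 to 0.37 in the others. Fitted on its own 16 animals, an alternative chosen after seeing the data for the other strains, AJ had 46 calls and CAST 29, and the rest 130 (NOD) to 1729 (NZO). So the place of AJ as the lowest count depended on the model, and differences between strains in the number of calls were not tested.

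Differences in response were tested gene by gene between AJ and each other strain. Against 129S1 and NOD, 0 genes were called by limma (0% each), with 782 and 835 genes at an unadjusted p under 0.05. Against CAST 4 were called (0.0296%), against B6 12 (0.0887%), against PWK 19 (0.14%), against WSB 20 (0.148%) and against NZO 411 (3.04%). In most of them AJ had the smaller change, namely 12 of 12 against B6, 3 of 4 against CAST, 18 of 19 against PWK, 18 of 20 against WSB and 379 of 411 against NZO. NZO was collected at 20 weeks and AJ at 26, so age and strain cannot be told apart in that comparison. Against CAST the genes were Wfdc12 (-3.12), Slco1c1 (-2.12) and Cyp2c67 (-1.45), each called higher in CAST, and Plscr2 (0.92), called higher in AJ. Wfdc12 also differed from WSB (2.72), where it was called lower.

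The largest differences to B6, in Cidea and Cfd, were in genes near 0 in AJ, named here after their values were seen. Cidea, a lipid droplet protein of fat cells and fatty liver, had medians of 0.81 and 0.43 count equivalents on chow and high fat in AJ, and at most 2.47 in any AJ animal. In B6 its median rose from 0 to 92.1 (change 5.38 ± 0.42 SE, limma adjusted p = 1.43e-19), and AJ minus B6 was -5.35 (SE 0.60, adjusted p = 1.00e-10). With limma-voom the Cidea difference was -6.26 and was not called (adjusted p = 0.204). Cfd, the adipocyte protease adipsin, had a median of 0 on both diets in AJ, and in B6 rose from 0.93 to 67.5 (change 5.12 ± 0.42 SE, adjusted p = 2.21e-18). AJ minus B6 was -5.16 for Cfd. Enho was lower on high fat in B6, with medians of 86.4 and 9.36 (change -3.36 ± 0.46 SE, adjusted p = 6.28e-08), and AJ minus B6 was 3.09 (adjusted p = 0.00880). The Enho difference was also not called with limma-voom (3.22, adjusted p = 0.0875). Cidea and Cfd were also called higher in NZO, with AJ minus NZO of -3.24 and -2.18. Cidec was called higher in B6 (3.26 ± 0.62 SE) and NZO (3.03 ± 0.62 SE), and its difference to AJ was not called. In AJ the 5 adipocyte markers together summed to at most 11.02 count equivalents on chow and 4.94 on high fat.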

How the data were processed

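Liver RNA was sequenced by the submitters as 100 base single-end reads. The deposited values are a signal: gene estimates that the authors scaled so that the upper quartile of each library is 1. CASAVA 1.8.0, Bowtie 0.12.8, RSEM 1.2.1 and the NCBIM37 (mm9) genome are named per the submitters' processing notes, and the founder table was aligned to strain genomes per its name. On average 83.1% of low values (81.0% to 85.0% per library) lay within 0.1 of a whole read, so they were treated as estimated and no count test was used. Values times 115 were tested as log2(value + 1) with limma 3.58.1 (R 4.3.3) over 128 animals in 16 groups of strain and diet, for 13534 of 24965 genes with at least 10 count equivalents in 8 animals. Named genes were AJ calls with a mean log2 value of at least 5, calls of AJ minus the other 7, the largest changes in the other 7, the smallest p values of each list and a set of lipid genes. Members and lists were chosen with earlier results of these data known. Alternatives changed the pseudocount, filter, scaling, model, lane and single animals, and leaving out 2 AJ animals together and fitting each strain alone were chosen after seeing the data. Calculations were tested on simulated data. Some genes that the naming rule selects are not reported here.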

Additional observations from a re-analysis of the deposited data

Results flagged for a closer look

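Single animals stood apart from their diet group in 20 of 166 groups of values examined, where the gap to the nearest animal over the range of the 8 exceeded Dixon's 95% critical value. Chance gives about 1 such group in 20. In chow replicate 8 the gap was 0.638 for Abcg2 (highest), 0.840 for ENSMUSG00000073738 (lowest), 0.623 for Cfd (highest), 0.553 for genes above 0, 0.538 for T, B and NK cell markers and 0.589 for adipocyte markers. In high fat replicate 6 it was 0.545 for Hook2 (lowest), 0.547 for Chac1 (highest), 0.802 for Cyp7a1 (lowest) and 0.822 for cholangiocyte markers (highest). Chow replicate 7 was lowest for Chrna4 (0.558) and Scd1 (0.583), and chow replicate 3 highest for Vnn1 (0.562) and Aldh3a2 (0.559). Sod2 was highest in chow replicate 4 (0.540) and Gbp3 in high fat replicate 2 (0.707). Lepr was lowest in high fat replicate 3 (0.591) and Ntrk2, a neurotrophin receptor, in high fat replicate 1 (0.531). Adipocyte markers were highest in high fat replicate 8 (0.538), and pancreatic acinar markers lowest in high fat replicate 7 (0.541).

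Diet changes differed between strains by the limma test of the difference for these genes. AJ minus the mean of the other 7 was -3.58 for Cyp2a4. AJ minus CAST was 0.92 for Plscr2, -2.12 for Slco1c1, -3.12 for Wfdc12 and -1.45 for Cyp2c67. AJ minus B6 was 3.09 for Enho, -5.35 for Cidea and -5.16 for Cfd, and the Enho and Cidea calls were lost with limma-voom. AJ minus PWK was 0.93 for Plscr2, and AJ minus WSB was -0.81 for Hook2 and 2.72 for Wfdc12. AJ minus NZO was -0.76 for Hook2, -7.67 for Cyp2a4, -2.25 for Aldh3a2, 1.52 for Cyp7b1, 0.94 for Atf4, 2.61 for Ugt2b38, -5.56 for Cyp2b9, -3.27 for Ntrk2, -3.24 for Cidea and -2.18 for Cfd, where age also differs.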

How the results depend on the processing

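The AJ count of 18 was 31 with a pseudocount of 5, 34 with no filter on low values, 46 with AJ animals only and 6 with AJ animals only and sequencing lane as a replicate block, 4 of them among the 18 (Acaca, Abcg2, Plscr2 and Vnn1). Leaving out 1 AJ animal gave 14 to 27. Of the 18 calls, 12 were shared with limma-voom on estimated counts, which also called 18 and lost Fitm1, Sqle, Chrna4, Gpc1, Vnn1 and Adgrv1, and 14 were kept with a pseudocount of 0.5. With lane as a replicate block over all strains 18 were called, 17 of them shared, and Gk lost its call (adjusted p = 0.0626). Correlations of AJ animals in the same lane were -0.19 to 0.27. Pairs from different lanes were not compared, and an effect of lane was not tested. No call of the 18 changed direction in the alternatives run.

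For AJ minus the other 7 strains the count of 1 was 2 with no filter, and 0 to 1 when an AJ animal was left out. The Scd1 change of 0.13 was -0.0076 with quantile normalization and -0.18 to 0.28 with 1 AJ animal left out, below 0 without chow replicate 7. The Cyp7a1 change of -0.32 was -0.60 to 0.59 with 1 AJ animal left out, above 0 without high fat replicate 6, and 0.76 without that animal and chow replicate 8, an alternative chosen after seeing the data. The cause was not tested. The number of animals and the spread between them limit what 8 against 8 can call, and genes below 10 count equivalents were mostly not tested.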
